A study of Mus musculus with 21 samples.

Results

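Dux, the Zscan4 genes and Zfp352 are genes of the 2-cell embryo, and their levels were followed in mouse embryonic stem cells treated with inhibitors of RNA polymerase I. The 8 symbols listed were Dux, Zscan4a, Zscan4b, Zscan4c, Zscan4d, Zscan4e, Zscan4f and Zfp352, and 7 of them were rows of the deposited table of 20900 genes. Zscan4e was not analysed here. All 7 passed the filter on low values, which left 16521 genes with a mean of at least 10 reads over the 21 libraries.

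The cells were the E14 line of the 129 strain, kept in serum with leukaemia inhibitory factor, and 3 libraries of poly(A) RNA were made per group. The groups were untreated cells (0 h) and cells given 1 µM BMH-21 or 1 µM CX-5461 for 2, 4 or 8 h. Each compound blocks RNA polymerase I, which makes the ribosomal RNA precursor. The same 3 untreated libraries were the control for both inhibitors at every time, no untreated cells were sampled at 2, 4 or 8 h, and all cells came from 1 line. The labels do not say that replicates were separate cultures, so p-values measure only the spread between these libraries, which may be technical.

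Dux encodes a transcription factor with 2 homeodomains that is expressed briefly when the embryonic genome is first transcribed, and it can switch on a set of genes of that stage. The Zscan4 genes, a cluster of near-identical copies coding for proteins with zinc fingers, and Zfp352, another zinc finger gene, are among its known targets. In cultures of embryonic stem cells these genes are transcribed in a small, changing fraction of the cells. In bulk RNA, more cells expressing a gene and more RNA per cell cannot be told apart.

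The bases ahead of the transcription start are shown for the members with a window in RefSeq (build GRCm38.p6), 5 of the 8, because they let the copies of the cluster be compared where transcription begins. Each run is 239 bases, 5′ to 3′ on the gene's strand, and ends 12 bases before the start in RefSeq. For Zscan4d that start (11166148) lies 11 bases inside the one in GENCODE M21 (11166159), and for the other 4 genes both starts agree. Capitals mark TATAAA and TGATTNAAT, on either strand.
Zscan4c (chr7:11005495-11005733, plus strand): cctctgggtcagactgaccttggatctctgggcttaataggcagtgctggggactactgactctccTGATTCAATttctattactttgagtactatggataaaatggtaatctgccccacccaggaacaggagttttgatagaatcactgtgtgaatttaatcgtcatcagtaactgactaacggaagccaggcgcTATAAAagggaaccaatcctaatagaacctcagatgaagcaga
Zscan4f (chr7:11397665-11397903, plus strand): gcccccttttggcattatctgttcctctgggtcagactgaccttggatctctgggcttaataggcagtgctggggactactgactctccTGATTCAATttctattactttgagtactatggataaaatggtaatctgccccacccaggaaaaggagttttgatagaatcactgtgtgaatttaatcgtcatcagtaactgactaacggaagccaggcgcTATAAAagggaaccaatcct
Zscan4b (chr7:10905062-10905300, minus strand): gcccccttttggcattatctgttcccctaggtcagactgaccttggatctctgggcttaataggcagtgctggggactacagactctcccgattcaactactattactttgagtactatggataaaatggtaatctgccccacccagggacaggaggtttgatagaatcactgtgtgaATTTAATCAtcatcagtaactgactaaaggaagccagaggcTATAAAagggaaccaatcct
Zscan4d (chr7:11166160-11166398, minus strand): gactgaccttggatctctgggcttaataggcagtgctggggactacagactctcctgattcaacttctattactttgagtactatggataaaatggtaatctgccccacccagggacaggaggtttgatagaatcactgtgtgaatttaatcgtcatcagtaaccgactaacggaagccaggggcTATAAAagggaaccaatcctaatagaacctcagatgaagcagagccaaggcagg
Zfp352 (chr4:90218570-90218808, plus strand): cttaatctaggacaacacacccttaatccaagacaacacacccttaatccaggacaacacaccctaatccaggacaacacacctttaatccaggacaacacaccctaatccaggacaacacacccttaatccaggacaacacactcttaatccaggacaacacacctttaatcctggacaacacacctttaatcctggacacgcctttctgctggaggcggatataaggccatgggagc

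The 4 Zscan4 windows were 94.71% to 99.56% identical to each other over their aligned bases, with Zscan4c and Zscan4f the closest pair. TATAAA, the letters of a TATA box, stood 26 to 31 bases before the start of Zscan4b and Zscan4f, and 49 to 54 and 60 to 65 bases before the RefSeq starts of Zscan4c and Zscan4d. It was found in the 250 bases before the start in 12.4% of 32851 RefSeq windows of the same length. TGATTNAAT is the start of a longer site bound by mouse Dux. It was present in Zscan4c, Zscan4f and, on the other strand, Zscan4b, against 0.658% of all windows, and it lay 153 to 161 bases before the start of Zscan4f and 176 to 184 before that of Zscan4c. Neither TATAAA nor TGATTNAAT was found in the Zfp352 window. A match describes the letters in these windows only.

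The genes of the cluster lie on chromosome 7 of mm10, from Zscan4a (chr7:10794242-10799057) through Zscan4b (chr7:10900740-10905050), Zscan4c (chr7:11005745-11010547) and Zscan4d (chr7:11161374-11166159) to Zscan4f (chr7:11397915-11402318) in GENCODE M21. That annotation lists Zscan4a as an unprocessed pseudogene and the others as protein coding. Of the 50-base stretches in their transcripts, 90.1% of those of Zscan4b, 86.8% of Zscan4f, 85.5% of Zscan4c, 63.6% of Zscan4a and 49.6% of Zscan4d also occurred in another gene, mostly of the cluster, Zscan4e included. Reads could therefore be split or moved between the copies, and each Zscan4 value is uncertain. Zfp352 (chr4:90218820-90225702) shared 7.09% of its stretches. Dux belongs to a multi-copy array, so its reads are uncertain too. The annotation used here has no gene of the symbol Dux, and its position is not given.

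Levels are log2 values, given as deposited and after each library was centred on its median over the tested genes. The deposited values carry a scaling factor per library, which was 1.209 to 1.375 in the 3 libraries at 8 h of BMH-21 and 0.888 to 0.943 at 8 h of CX-5461. Against the control, the median of all tested genes moved by -0.09, -0.13 and -0.17 at 2, 4 and 8 h of BMH-21 and by -0.15, -0.11 and 0.27 at those of CX-5461 as deposited. Reads are whole reads recovered from the table, with 46604397 to 62812641 per library. A gene is called where the limma adjusted p over all 16521 genes is under 0.05. All 8 stem cell markers examined had reads in every group. Their levels are summed as RPM, reads scaled to the library total multiplied by its scaling factor. That factor was 0.832 to 0.948 in control, so differences in RPM between groups also carry differences in the factor. The summed level was 6003 to 6853 RPM in control. It was 2874 to 3041 at 8 h of BMH-21 and 5448 to 5844 at 8 h of CX-5461. The summed level of 6 trophectoderm markers was 97.4 to 108 in control, 129 to 153 at 8 h of BMH-21 and 149 to 169 at 8 h of CX-5461. The 6 fibroblast markers summed to 33.7 to 38.1, 42.1 to 50.2 and 49.7 to 49.8 in these groups, and the 6 primitive endoderm markers to 15.4 to 19.0, 10.5 to 13.0 and 18.1 to 18.6. No marker was at 0 reads throughout a group. The part of these levels in the results was not tested.

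**Figure D1:**
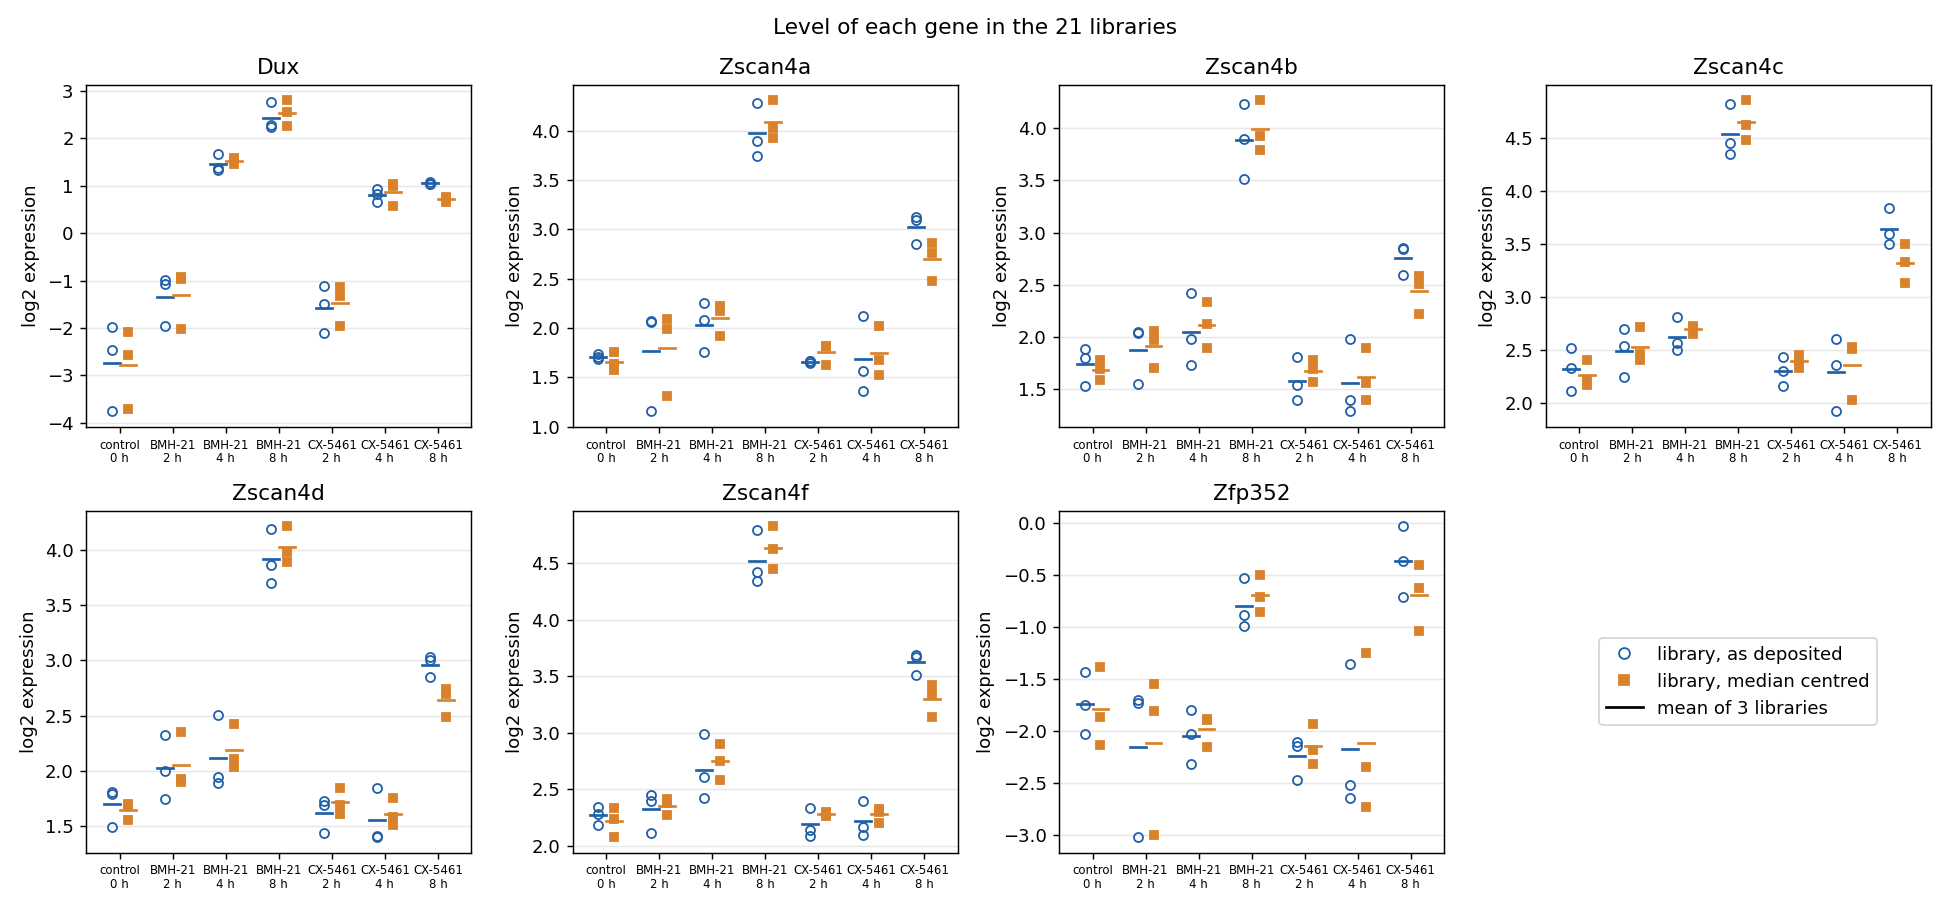
Log2 level (vertical axis) of the 7 genes in each library of the 7 groups (horizontal axis), as deposited (open circles) and median centred (squares), with lines at the mean of 3 libraries. Dux is already high at 4 h of both inhibitors, while the 5 Zscan4 genes and Zfp352 are highest at 8 h.

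Dux rose with both inhibitors from 2 h on. The control libraries held 8, 11 and 3 Dux reads. At 2, 4 and 8 h of BMH-21 they held 22, 12 and 22, then 150, 148 and 138, then 282, 420 and 428. With CX-5461 the counts were 19, 20 and 13 at 2 h, 117, 74 and 105 at 4 h, and 101, 106 and 91 at 8 h. Every treated library thus held more Dux reads than any control, and the counts at 4 h did not overlap those at 2 h for either inhibitor. On the deposited log2 scale 1 library at 2 h of CX-5461 (-2.11) lay among the controls.

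On the deposited log2 scale the level of Dux was -2.74 ± 0.92 (SD, n = 3) in control. It was -1.34 ± 0.53, 1.46 ± 0.19 and 2.43 ± 0.30 at 2, 4 and 8 h of BMH-21, while CX-5461 gave -1.57 ± 0.50, 0.81 ± 0.14 and 1.05 ± 0.03 (SD, n = 3 each). The order from the highest was BMH-21 at 8 h, BMH-21 at 4 h, CX-5461 at 8 h, CX-5461 at 4 h, BMH-21 at 2 h, CX-5461 at 2 h and control. After centring, CX-5461 at 4 h (0.87 ± 0.26) and at 8 h (0.73 ± 0.05) changed places. As deposited their libraries did not overlap (0.67 to 0.94 at 4 h, 1.03 to 1.08 at 8 h), but the difference was not called (limma adjusted p 0.437), and after centring they overlapped. The 2 h levels of the inhibitors also overlapped.

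Against control, Dux rose at 2 h by a log2 fold change of 1.40 (SE 0.26, limma adjusted p 1.4e-05) with BMH-21 and 1.16 (SE 0.26, limma adjusted p 0.00035) with CX-5461. Without control replicate 3, the library with 3 reads, these were 0.89 and 0.65, and both stayed past the threshold. At 4 h the log2 fold changes were 4.20 and 3.55, and at 8 h 5.17 and 3.79, each with an SE of 0.26 and the largest limma adjusted p at 9.3e-23. After centring the changes were 1.49, 4.32 and 5.33 under BMH-21, while under CX-5461 they were 1.31, 3.66 and 3.52, with SE 0.31. The offset of 0.5 reads in the log2 scale understates changes from so few reads. Among the 16521 genes, ordered from the largest rise, Dux stood at place 292, 145 and 158 under BMH-21 and, under CX-5461, at place 401, 256 and 156 at 2, 4 and 8 h. The spread of Dux over its own replicates (SD 0.47) was above the moderated SD that the deposited-scale test used (0.32). With the spread of Dux alone, the adjusted p at 2 h was 0.0245 for BMH-21 and 0.0492 for CX-5461.

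The 5 Zscan4 genes rose at 8 h with both inhibitors. Zscan4c, the copy with most reads, had 267, 228 and 204 reads in the control libraries. With BMH-21 it had 224, 279 and 290 at 2 h, 329, 322 and 326 at 4 h, and 1313, 1753 and 1776 at 8 h. With CX-5461 it had 227, 258 and 287 at 2 h, 338, 284 and 208 at 4 h, and 560, 627 and 618 at 8 h. The 8 h libraries of both inhibitors stood above all others, and those of BMH-21 above those of CX-5461.

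Zscan4f followed the same course, from 238, 207 and 230 reads in control to 373, 307 and 337 at 4 h and 1284, 1754 and 1744 at 8 h of BMH-21. With CX-5461 it had 295, 246 and 235 reads at 4 h and 564, 668 and 552 at 8 h. The reads of Zscan4a, Zscan4b and Zscan4d ran from 133 to 173 in control, from 875 to 1216 at 8 h of BMH-21 and from 298 to 454 at 8 h of CX-5461. Summed over the 5 copies, which lessens the uncertainty between them, the libraries held 857 to 996 reads in control, 5261 to 7058 at 8 h of BMH-21 and 2135 to 2539 at 8 h of CX-5461.

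At 8 h all 5 Zscan4 genes were higher than control with both inhibitors. The log2 fold changes with BMH-21 were 2.26 for Zscan4a, 2.14 for Zscan4b, 2.22 for Zscan4c, 2.22 for Zscan4d and 2.25 for Zscan4f, with SE 0.13 to 0.16 and a largest limma adjusted p of 8.6e-23. With CX-5461 they were 1.31, 1.02, 1.33, 1.26 and 1.35, with a largest limma adjusted p of 4.4e-08. After centring they ran from 2.31 to 2.43 for BMH-21 and from 0.75 to 1.08 for CX-5461, all 10 called.

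Zscan4 changes at 2 and 4 h were small and, in part, dependent on the scale. At 4 h of BMH-21 Zscan4f (0.40, limma adjusted p 0.00681), Zscan4d (0.42, limma adjusted p 0.0124) and Zscan4c (0.30, limma adjusted p 0.0499) were called as deposited, while Zscan4a (0.32, limma adjusted p 0.0726) and Zscan4b (0.31, limma adjusted p 0.0854) were not. All 5 were called after centring, at 0.43 to 0.54. Without BMH-21 4 h replicate 1, none of the 3 was past the threshold as deposited (limma adjusted p 0.124 to 0.222), and without control replicate 3 Zscan4c and Zscan4d were not. Zscan4c was also lost without control replicate 2 (limma adjusted p 0.0819), and without BMH-21 4 h replicate 2 Zscan4a and Zscan4b were called as well. With CX-5461 the 5 log2 fold changes were -0.16 to -0.02 at 2 h and -0.18 to -0.02 at 4 h. By limma none of these 10 was called on either scale or had an unadjusted p under 0.05, and centring turned the sign of 4 copies at 2 h and 3 at 4 h. Without CX-5461 4 h replicate 2, Zscan4b was called as lower at 4 h (-0.40, limma adjusted p 0.0333). At 2 h of BMH-21 no copy was called as deposited, and Zscan4d had the only unadjusted limma p under 0.05 (0.0348). Zscan4d was called there after centring (0.41, limma adjusted p 0.0109), and as deposited without BMH-21 2 h replicate 1 (0.46, limma adjusted p 0.0403).

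**Figure D2:**
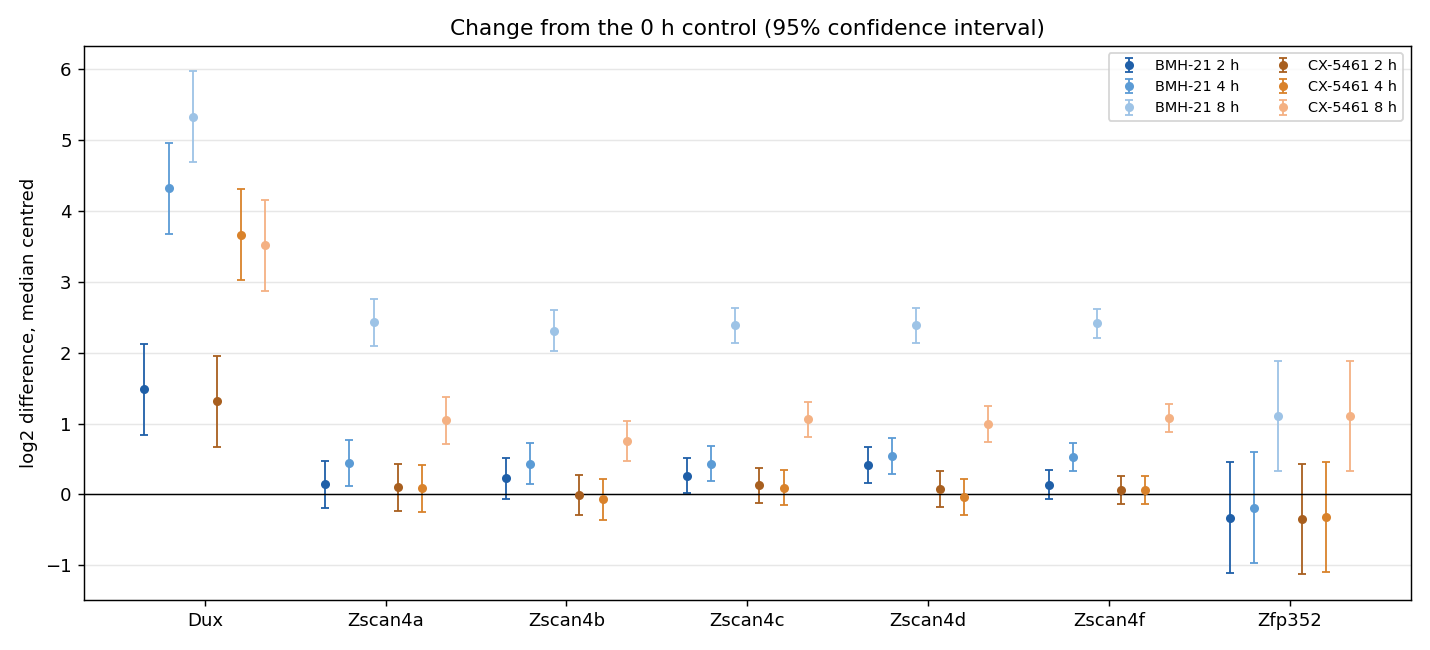
Median centred log2 change from the 0 h control (vertical axis) for each gene (horizontal axis) at 2, 4 and 8 h of each inhibitor, with points for the fitted change and bars for its 95% confidence interval. The interval of Dux lies above 0 in all 6 groups, whereas those of the Zscan4 genes with CX-5461 and of Zfp352 with either inhibitor do so only at 8 h.

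Zfp352, the third kind of gene here, had few reads and rose only at the last time. Its libraries held 11, 13 and 17 reads in control, 14, 14 and 5, then 13, 11 and 13, then 32, 43 and 43 at 2, 4 and 8 h of BMH-21. With CX-5461 they held 9, 13 and 10, then 11, 7 and 21, then 48, 40 and 26. The 8 h libraries of both inhibitors were above every other library. At 8 h its log2 fold change was 0.94 (SE 0.39, limma adjusted p 0.0251) with BMH-21 and 1.37 (SE 0.39, limma adjusted p 0.00226) with CX-5461. After centring both were close to 1.10, at 1.104 (limma adjusted p 0.00979) and 1.105 (limma adjusted p 0.0116). With control replicate 1 or BMH-21 8 h replicate 3 left out, the deposited BMH-21 value was no longer called (limma adjusted p 0.0917 and 0.0975). At 2 and 4 h the 4 log2 fold changes were -0.50 to -0.31 and none was called by limma (smallest unadjusted p 0.203), with 95% confidence intervals that reached from -1.28 to 0.47.

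Counted together, 1 of the 7 genes was called at 2 h of BMH-21 as deposited and 2 after centring. At 4 h of BMH-21 it was 4 of 7 as deposited and 6 of 7 after centring. All of these were higher. Of all tested genes, 8.05% at 2 h and 22.3% at 4 h were called as higher as deposited, and 18.3% and 30.5% after centring. In either direction the shares were 18.0% and 63.5% as deposited, and 32.5% and 70.2% after centring. At 8 h of BMH-21 all 7 were called as higher on both scales, against 25.1% of all genes called as higher as deposited and 32.0% after centring. For CX-5461 the count was 1 of 7 at 2 h and 1 of 7 at 4 h, with Dux higher at both. Of all genes 6.95% and 19.7% were called as higher, and 24.5% and 66.3% in either direction. At 8 h of CX-5461 all 7 were called as higher, against 34.3% as deposited and 26.3% after centring. Genes called in either direction were thus common in these comparisons whatever the list. At 8 h all 3 treated libraries lay above all 3 controls for each of the 7 genes, which was so for 24.9% of all genes under BMH-21 and 42.0% under CX-5461. The median change of the 7 at 8 h was 2.22 for BMH-21 and 1.33 for CX-5461, beside -0.36 and 0.13 over all tested genes. Most of the 7 are Zscan4 copies, between which reads could be split or moved. Their calls may therefore not be separate observations. Counts out of 7, here and below, cannot be weighed directly against a share of all genes.

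On the log2 scale, Dux and the other genes had their largest steps at different times, although the differences between genes were not tested. The step from 4 to 8 h was also the longer. In reads, Dux held 12 to 22 at 2 h, 138 to 150 at 4 h and 282 to 428 at 8 h of BMH-21. From 2 to 4 h, Dux rose by 2.80 (SE 0.26, limma adjusted p 9.5e-17) with BMH-21 and by 2.39 (SE 0.26, limma adjusted p 2.3e-13) with CX-5461. In that step Zscan4f with BMH-21 (0.35, limma adjusted p 0.0221) was the other gene called, and it was not called without BMH-21 2 h replicate 1 (limma adjusted p 0.147) or BMH-21 4 h replicate 1 (limma adjusted p 0.247). Without BMH-21 2 h replicate 2 or 3, Zscan4a was called as well (limma adjusted p 0.0438 and 0.0394). So 2 of the 7 were called with BMH-21 and 1 with CX-5461, all as higher. Of all genes 20.4% and 20.3% were called as higher, and 52.0% and 44.2% in either direction. The Zscan4 genes changed by 0.09 to 0.35 under BMH-21 and -0.07 to 0.03 under CX-5461.

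From 4 to 8 h the Zscan4 genes and Zfp352 had the larger changes. The 5 Zscan4 genes rose by 1.80 to 1.94 under BMH-21 and 1.20 to 1.41 under CX-5461 (centred, 1.84 to 1.98 and 0.82 to 1.03), all called. Zfp352 rose by 1.25 (SE 0.39, limma adjusted p 0.00517) with BMH-21 and 1.81 (SE 0.39, limma adjusted p 5.6e-05) with CX-5461. Dux rose by 0.97 (SE 0.26, limma adjusted p 0.00109) with BMH-21. With CX-5461 it changed by 0.24 (95% confidence interval -0.28 to 0.76, limma adjusted p 0.437), and after centring by -0.15 (-0.79 to 0.50). In this step 7 of 7 were called as higher with BMH-21 and 6 of 7 with CX-5461. Of all genes 17.7% and 53.9% were called as higher, and 52.1% and 58.4% in either direction.

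**Figure D3:**
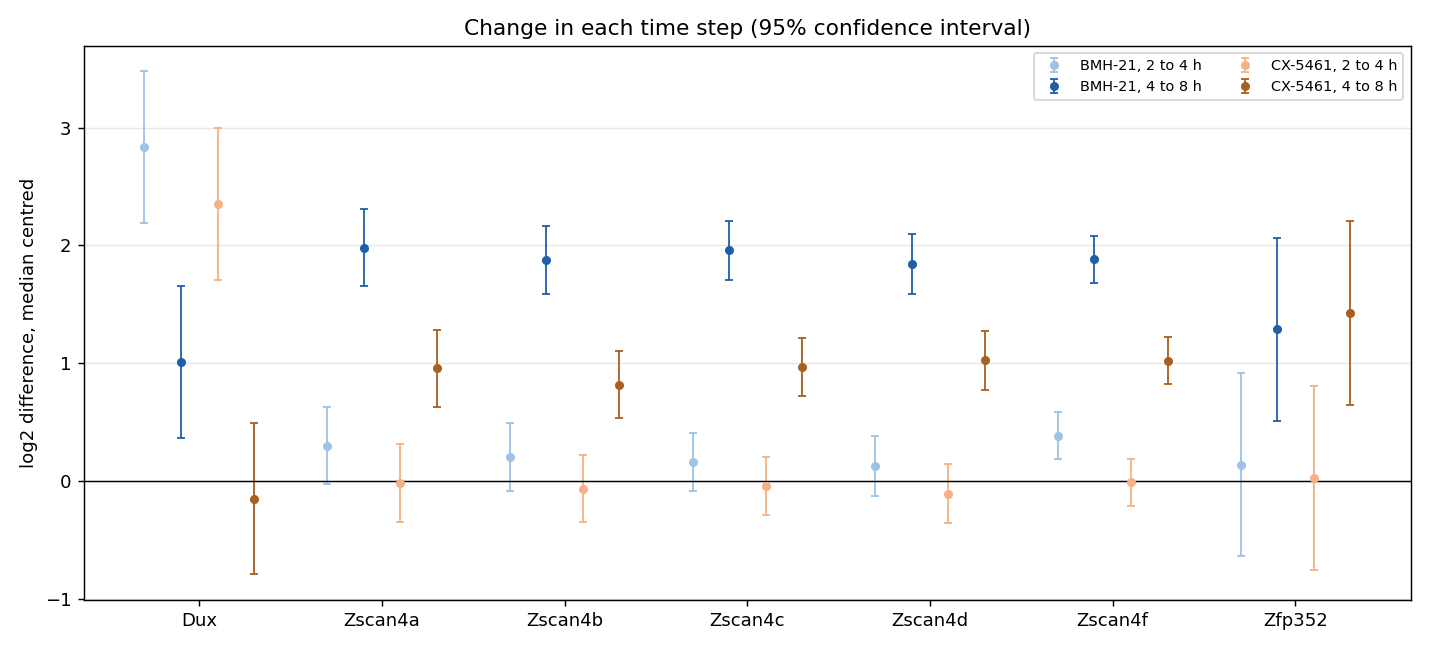
Median centred log2 change in the step from 2 to 4 h and from 4 to 8 h (vertical axis) for each gene (horizontal axis) with each inhibitor, with bars for the 95% confidence interval. Dux has its largest log2 change in the earlier step, and the Zscan4 genes and Zfp352 in the later one, which is longer.

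The reads of the 5 Zscan4 genes per Dux read moved accordingly. In the control libraries there were 81.6, 124.5 and 286 Zscan4 reads per Dux read, from the lowest to the highest. There were 8.32 to 9.63 at 4 h of BMH-21 and 8.43 to 14.7 at 4 h of CX-5461. At 8 h there were 16.1 to 18.7 and 21.1 to 24.2. The ratio was lowest at 4 h with both inhibitors and did not overlap the control at 4 or 8 h. Pooled over the 3 libraries of a group, it was 125 in control, 9.16 at 4 h and 16.9 at 8 h of BMH-21, then 10.5 and 23.1 for CX-5461. These are ratios of read counts, not corrected for length, and the control values rest on 3 to 11 Dux reads.

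The inhibitors, used at the same dose and times, were compared at each time. There were 7 genes at 3 times, 21 comparisons in all, with p adjusted over all genes at each time. At 2 h none of the 7 was called, against 3.46% of all genes. The difference, BMH-21 minus CX-5461, was 0.24 for Dux (95% confidence interval -0.28 to 0.75). It was 0.40 for Zscan4d (0.10 to 0.70, limma adjusted p 0.14), whose unadjusted p was 0.00903, the only one of the 7 under 0.05, and which was called without BMH-21 2 h replicate 1 (0.54, limma adjusted p 0.0349).

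At 4 h Zscan4b (0.49, limma adjusted p 0.0235), Zscan4d (0.56, limma adjusted p 0.00441) and Zscan4f (0.46, limma adjusted p 0.0104) were higher with BMH-21. These 3 of 7 stood against 8.41% of all genes called as higher with BMH-21 and 15.9% in either direction. Centring added Zscan4c for 4 of 7, against 27.6% and 42.7%. None of the 3 was called without BMH-21 4 h replicate 1, and none with the genes' own spread. Without CX-5461 4 h replicate 3 Zscan4d alone was called, without CX-5461 4 h replicate 1 Zscan4b was lost (limma adjusted p 0.103), and without CX-5461 4 h replicate 2 the count was 5. Dux differed by 0.65 (95% confidence interval 0.13 to 1.17, limma adjusted p 0.0777), with all 3 BMH-21 libraries above all 3 of CX-5461. It was called with voom weights (limma adjusted p 0.0118), an offset of 5 reads (0.0294) or a fit of only these groups (0.00631).

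At 8 h Dux was higher with BMH-21 by 1.38 (SE 0.26, limma adjusted p 2.2e-06), and by 1.81 after centring. The Zscan4 genes were higher by 0.90 to 1.12 with a largest limma adjusted p of 1.5e-07, and by 1.33 to 1.56 after centring. For these 6 genes all 3 BMH-21 libraries lay above all 3 of CX-5461 on both scales, as for 12.8% of all genes as deposited and 31.8% after centring. Zfp352 did not follow them. Its difference was -0.44 (95% confidence interval -1.21 to 0.34) as deposited and -0.001 (-0.78 to 0.78) after centring, an interval that leaves room for a difference in either direction. Thus 6 of 7 were called as higher with BMH-21, against 11.5% of all genes as deposited and 30.3% after centring. The median of the differences of the single genes, over all tested genes, was -0.47 as deposited at this time, in the other direction.

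Whether the steps themselves differed between the inhibitors was tested as an interaction. For the 2 to 4 h step none of the 7 was called, against 2.77% of all genes, and none had an unadjusted p under 0.05 as deposited. The interaction of Dux there was 0.41 (95% confidence interval -0.32 to 1.14). For the 4 to 8 h step the rise was larger with BMH-21 for Zscan4a, Zscan4b, Zscan4c and Zscan4f, by 0.44 to 0.63. So 4 of 7 were called as deposited, against 7.32% of all genes in this direction and 63.0% in either. After centring all 5 Zscan4 genes (0.82 to 1.06) and Dux (1.16, limma adjusted p 0.0295) were called, again in this direction. These 6 of 7 stood against 21.3% of all genes in this direction and 54.8% in either. As deposited Dux had 0.73 (limma adjusted p 0.0755), and it was called with voom weights (0.00848), an offset of 5 reads (0.0327) or a fit of only these groups (0.00494). None of the 4 was called as deposited without CX-5461 4 h replicate 2, or without BMH-21 8 h replicate 3. Without BMH-21 4 h replicate 2 the count was 1, and without CX-5461 8 h replicate 1 it was 2. Zscan4f was also lost without BMH-21 4 h replicate 3 (limma adjusted p 0.0685). Dux was called as deposited without BMH-21 8 h replicate 1 or 2 (limma adjusted p 0.045 and 0.0451), and Zscan4d without BMH-21 4 h replicate 1 or BMH-21 8 h replicate 2 (limma adjusted p 0.0151 and 0.031).

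Within the cluster the copies held similar shares of the reads in all groups. Over all 21 libraries Zscan4c held 25.7% ± 1.5, Zscan4f 24.8% ± 1.5, Zscan4d 16.8% ± 1.2, Zscan4a 16.7% ± 1.4 and Zscan4b 16.0% ± 1.2 of the reads of the 5 genes (SD, n = 21). Zscan4c and Zscan4f were ahead of the other 3 in the mean of every group. The share of Zscan4b was 16.9% ± 0.9 in control, 16.1% ± 1.3 at 8 h of BMH-21 and 14.2% ± 0.4 at 8 h of CX-5461 (SD, n = 3 each), and its rise at 8 h of CX-5461 was the smallest of the 5. Reads could be split or moved between the copies, and the counting program is not given. The shares may thus depend on how shared reads were counted, and they do not show the level of each copy. The differences between copies were not tested.

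**Figure D4:**
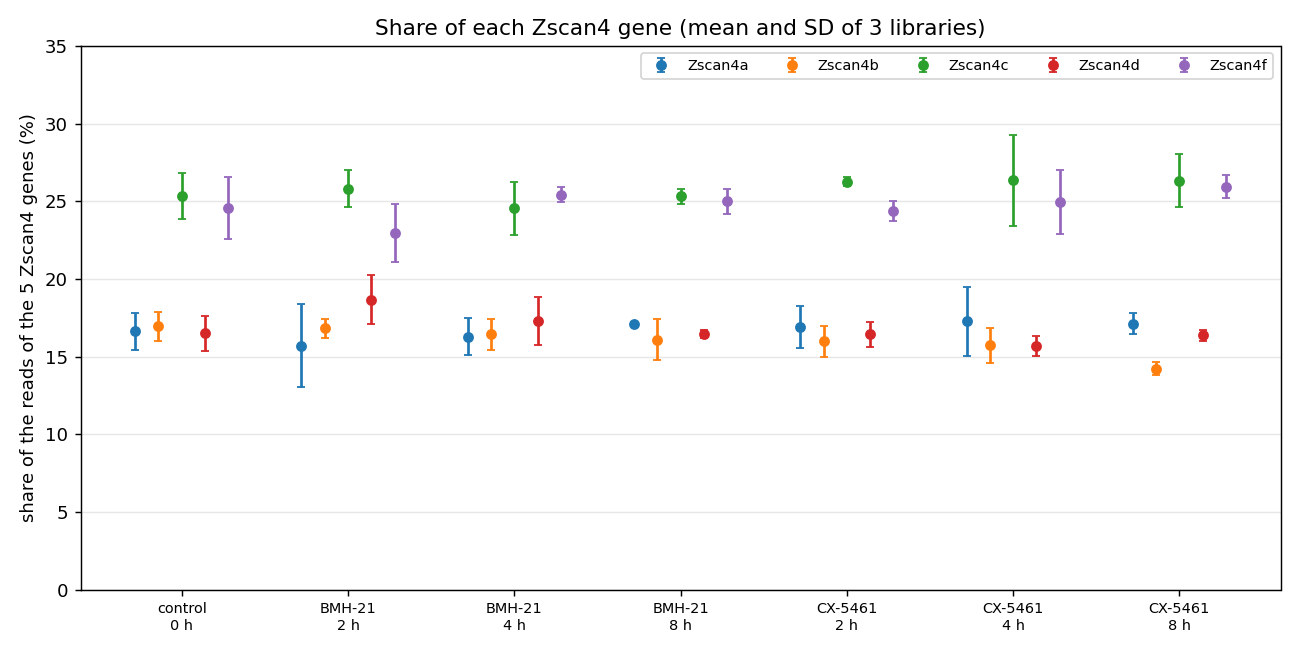
Share of each Zscan4 gene in the reads of the 5 Zscan4 genes (vertical axis, %) in the 7 groups (horizontal axis), as mean and SD of 3 libraries. Zscan4c and Zscan4f lie above the other 3 copies in every group, and the shares shift little while the summed reads rise. The shares may depend on how reads shared between copies were counted.

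Between genes, levels can be compared per length. RPKM here are the RPM described above, which carry the scaling factor, per kilobase of annotated exons. The control medians were 2.48 for Zscan4f, 2.20 for Zscan4c, 1.93 for Zscan4b, 1.52 for Zscan4d, 1.43 for Zscan4a and 0.126 for Zfp352. At 8 h of BMH-21 they were 10.9, 9.62, 8.27, 6.42, 6.55 and 0.234 in that order of genes. Zfp352 thus lay below every Zscan4 copy in both groups. In control the ranges over the 3 libraries overlapped between Zscan4f and Zscan4c, between Zscan4c and Zscan4b, and between Zscan4d and Zscan4a, but not between Zscan4b and Zscan4d. The order of the Zscan4 copies may also depend on how reads shared between them were counted.

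Of 7 further copies or relatives of these genes, 1 was in the table. Gm4981 (chr10:58234848-58236701, mm10) had 1, 4 and 3 reads in the control libraries, 49, 47 and 44 at 4 h of BMH-21, 60, 107 and 105 at 8 h of BMH-21, and 37, 42 and 27 at 8 h of CX-5461. Like Dux, Gm4981 had its larger step from 2 to 4 h, with 2.28 for BMH-21 (limma adjusted p 6.6e-07) and 2.27 for CX-5461 (limma adjusted p 9.5e-07). From 4 to 8 h Gm4981 changed by 0.53 and 0.48, and neither was called.

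Other genes of the 2-cell stage moved mostly at 8 h. Of 38 listed, 34 were in the table and 29 were tested. Many symbols on the list belong to families of related genes, such as the Tdpoz and Tcstv genes. Whether reads were split between them was not examined, and their calls may not be separate observations. Counts out of 29 therefore cannot be weighed directly against a share of all genes. With BMH-21, 4 were higher and 1 lower at 2 h, 10 and 2 at 4 h, and 26 and 2 at 8 h. Of all genes, 8.05%, 22.3% and 25.1% were called as higher and 9.93%, 41.2% and 52.9% as lower at these times. With CX-5461, 2 were higher and 6 lower at 2 h, 6 and 6 at 4 h, and 24 and 2 at 8 h. The shares of all genes were 6.95%, 19.7% and 34.3% higher and 17.6%, 46.6% and 12.9% lower. At 8 h their median log2 fold change was 1.45 for BMH-21 and 1.43 for CX-5461, beside -0.36 and 0.13 over all tested genes. At 8 h, 6 of the 29 were higher and 3 lower with BMH-21 than with CX-5461, against 11.5% and 62.2% of all genes. The 3 with the highest level were Ddit4l, an inhibitor of mTOR signalling, Zfp750 and Gm5662. Ddit4l and Zfp750 rose at 2 h of BMH-21 by 2.86 and 2.78 and at 2 h of CX-5461 by 2.90 and 2.96, with limma adjusted p of 7.2e-40 or less. Both fell from 4 to 8 h with either inhibitor, Ddit4l by 0.41 and 0.89 and Zfp750 by 0.98 and 1.10. Gm5662 rose at 8 h, by 1.12 under BMH-21 and 1.13 under CX-5461.

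Genes known to act upstream of Dux were counted in the same way. Of the 4 activators of Dux or of the 2-cell programme on the list, 4 were called as lower at 4 h and 4 at 8 h of BMH-21 by limma, against 41.2% and 52.9% of all genes. With CX-5461, 2 were lower at 2 h and 4 at 4 h, against 17.6% and 46.6% of all genes. At 8 h 2 were lower as deposited, against 12.9%, and 4 after centring, against 44.5%. Dppa2, which with Dppa4 binds the Dux promoter, fell by 0.97 at 4 h and by 1.61 at 8 h of BMH-21 (limma adjusted p 2.2e-13 and 1.9e-25). Dppa4 fell by 0.66 and by 1.10 at these times (limma adjusted p 3.3e-08 and 4.7e-17). Transcripts of Trp53, the gene of p53, fell by 0.38 and by 1.38 (limma adjusted p 0.00082 and 4e-23).

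Of 15 repressors of Dux or of the 2-cell programme, 2, 13 and 15 were lower at 2, 4 and 8 h of BMH-21 as deposited, against 9.93%, 41.2% and 52.9% of all genes. With CX-5461, 6, 14 and 8 were lower as deposited, against 17.6%, 46.6% and 12.9%, and 14 at 8 h after centring, against 44.5%. Trim28, a corepressor that works with histone methylation, fell by 1.84 at 8 h of BMH-21 and by 0.85 at 8 h of CX-5461 (limma adjusted p 2.8e-32 and 1.9e-12). Ncl, the gene of nucleolin, which keeps Dux silent at the nucleolus together with Trim28, fell by 1.17 and 0.42 (limma adjusted p 7.6e-19 and 0.00027). Usp7, a deubiquitinase, fell by 0.67 and 0.35 (limma adjusted p 1.7e-08 and 0.0041). The median change of the 15 was -0.99 at 8 h of BMH-21 as deposited, where the median change over all tested genes was -0.36. Of all genes 52.9% were called as lower there as deposited and 49.6% after centring.

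The genes most like each pattern were found by the root mean square difference over the 6 centred changes from control, all of which share the control libraries. Nearest to Dux were Klhl38 (0.15), Cnbd2 (0.19) and Gm11544 (0.23). Klhl38 had 0 to 3 reads in the control libraries, so its fitted changes depend on the offset, while Cnbd2 had 10 to 20. Nearest to the mean of the Zscan4 genes were Bhlhe41 (0.18), Grip1 (0.24) and Otop2 (0.26), and nearest to Zfp352 were 1700042O10Rik (0.18), Rsph3b (0.19) and Jak2 (0.21). Cnbd2 changed by 1.31, 4.01 and 5.26 under BMH-21 and 1.24, 3.91 and 3.48 under CX-5461, against 1.49, 4.32, 5.33, 1.31, 3.66 and 3.52 for Dux. Jak2 changed by 0.90 at 8 h of BMH-21 and 0.98 at 8 h of CX-5461, against 1.10 and 1.11 for Zfp352.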

How the data were processed

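RNA-seq of poly(A) RNA, made with a directional kit per the labels' protocols, gave 21 libraries in 7 groups, set by the labels' titles. The submitters' processing notes name mm10, Trim Galore 0.5.0, TopHat2 2.1.1, R 4.0.5, DESeq2 1.30.1, edgeR 3.32.1 and limma 3.46.0, with no role or order. The counting program, annotation and filters are not given in the sources used here. The authors deposited log2 values named as voom-normalized. Every deposited value is the log2 of whole reads plus 0.5 over a library size, to within 1.7e-08 reads, and depth was read from it.

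The deposited log2 values were fitted with limma 3.58.1 (R 4.3.3), 1 mean per group, eBayes with trend, two-sided, with Benjamini-Hochberg adjustment over 16521 genes with a mean of at least 10 reads, and 4379 genes were not tested. There were 15 comparisons. The same fit was made on median centred values. On simulated data for BMH-21 at 8 h against control over 16521 genes, 191 of 200 changed genes were recovered. The changed genes all had at least 10 expected control reads, the spread was the moderated one, and no other gene was shifted. The rate therefore does not cover genes with fewer control reads, such as Dux, or a comparison where most genes are called. The variance prior had 83.1 degrees of freedom as deposited and 9.4 after centring, so the deposited fit gave a gene's own spread little weight. Alternatives were median-ratio factors, an offset of 5 reads, other filters, voom weights, own variance, fits of single comparisons, a block for the replicate number, and leaving out each library. Replicate pairs differed beyond sampling noise (chi-square per degree of freedom 2.65 to 27.3).

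Named genes were all members, the 3 most like each pattern, and the 3 with the highest level in each list. Members and lists were chosen with earlier results of these data known. Figures were drawn with matplotlib 3.10.9.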

Additional observations from a re-analysis of the deposited data

Results flagged for a closer look

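The rise from 4 to 8 h differed between the inhibitors for 4 Zscan4 genes by the interaction term of the limma fit on the deposited values. BMH-21 gave the larger rise by 0.60 for Zscan4a (limma adjusted p 0.0166), 0.63 for Zscan4b (limma adjusted p 0.0117), 0.57 for Zscan4c (limma adjusted p 0.00976) and 0.44 for Zscan4f (limma adjusted p 0.0377). Of all tested genes 63.0% were called for this interaction, 7.32% with the higher value for BMH-21 and 55.7% with the lower. After centring the values were 1.02, 1.06, 0.99 and 0.86. As deposited, none of the 4 was called without CX-5461 4 h replicate 2, without BMH-21 8 h replicate 3, or with each gene's own variance. Reads could be split or moved between the copies, so the 4 may not be separate observations.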

How the results depend on the processing

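The 8 h rises of Dux and the 5 Zscan4 genes with both inhibitors, and their higher 8 h level with BMH-21, kept their direction and their side of the threshold under every alternative that gave a value. So did the rise of Dux at 2 and 4 h. Zfp352 could not be tested with the filter of a log2 value above 0 in 3 libraries, which it did not pass.

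The number of the 7 genes called moved most where changes were small. At 2 h of BMH-21 against control it was 1, and 2 after centring and with median-ratio factors (1 to 2 leaving out 1 library). At 4 h of BMH-21 it was 4, and 2 with each gene's own variance (1 to 6 leaving out 1 library). At 4 h of CX-5461 it was 1 (1 to 2 leaving out 1 library). Between the inhibitors it was 0 at 2 h (0 to 1) and 3 at 4 h (0 to 5), with 0 at 4 h under own variance. For BMH-21 from 2 to 4 h it was 2, and 1 under own variance (1 to 3). For the interaction from 4 to 8 h it was 4, and 1 with no filter and 0 under own variance (0 to 6).

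No change called on the deposited scale changed sign. For CX-5461 at 2 h against control, centring gave 0.0998 for Zscan4a, 0.13 for Zscan4c, 0.072 for Zscan4d and 0.068 for Zscan4f, and median-ratio factors gave 0.13, 0.025, 0.16, 0.10 and 0.1001 for Zscan4a, Zscan4b, Zscan4c, Zscan4d and Zscan4f. At 4 h centring gave 0.087 for Zscan4a, 0.091 for Zscan4c and 0.0595 for Zscan4f, and median-ratio factors gave 0.22, 0.067, 0.23, 0.10 and 0.19 for the 5. From 2 to 4 h of CX-5461, Zscan4a was -0.013 after centring and -0.0018 with voom weights, Zscan4f was -0.0083 after centring, and Zscan4b and Zscan4c were 0.042 and 0.064 with median-ratio factors. Dux from 4 to 8 h of CX-5461 was -0.15 after centring and -0.13 with median-ratio factors. Zfp352 between the inhibitors was -0.013 at 2 h and 0.037 at 8 h with median-ratio factors. An offset of 5 reads gave Zfp352 -0.0064 for BMH-21 from 2 to 4 h and -0.054 for the interaction from 2 to 4 h. The cause was not tested.

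Leaving out 1 library changed the sign of 26 changes, none of them called. At 2 h of BMH-21 against control the ranges were -0.10 to 0.36 for Zscan4a, -0.016 to 0.15 for Zscan4f and -0.64 to 0.018 for Zfp352. At 2 h of CX-5461 they were -0.12 to 0.078 for Zscan4c and -0.18 to 0.011 for Zscan4d, and at 4 h -0.25 to 0.13 for Zscan4a, -0.18 to 0.16 for Zscan4c and -0.14 to 0.006 for Zscan4f. Between the inhibitors they were -0.032 to 0.54 for Dux, -0.051 to 0.41 for Zscan4a and -0.14 to 0.52 for Zfp352 at 2 h, and -0.11 to 0.53 for Zfp352 at 4 h. From 2 to 4 h of BMH-21 they were -0.038 to 0.42 for Zscan4a, -0.019 to 0.32 for Zscan4b, -0.10 to 0.25 for Zscan4d and -0.33 to 0.33 for Zfp352. From 2 to 4 h of CX-5461 they were -0.19 to 0.18 for Zscan4a, -0.24 to 0.11 for Zscan4b, -0.16 to 0.18 for Zscan4c, -0.21 to 0.0084 for Zscan4d, -0.061 to 0.10 for Zscan4f and -0.34 to 0.30 for Zfp352. For the interaction from 2 to 4 h they were -0.061 to 0.46 for Zscan4a, -0.055 to 0.29 for Zscan4c, -0.035 to 0.31 for Zscan4d and -0.40 to 0.45 for Zfp352.

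No shared effect of the replicate number was seen, since 0 of 63 same-numbered pairs had a correlation of deviations over 0.1 (-0.13 to 0.071). This cannot show whether same-numbered libraries came from the same culture. With the replicate number as a block, 1 of 105 values lost its call, Zscan4c at 4 h of BMH-21 (limma adjusted p 0.0566). That call was also lost with an offset of 5 reads (0.0503), no filter (0.107), voom weights (0.077), own variance (0.163) and a fit of only the groups compared (0.0575). Dux between the inhibitors at 4 h gained a call with 3 of these (0.00631 to 0.0294). Few reads limit Dux at 0 and 2 h (3 to 22 reads) and Zfp352 throughout (5 to 48 reads).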
